A study of Mus musculus with 24 samples.

Results

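Klrg1, Irf4 and Prdm1, 3 genes of effector regulatory T cells (Tregs), were followed through a custom nCounter panel of 96 genes read on Tregs from mouse visceral adipose tissue (VAT). The members were taken by name as the panel rows for these 3 genes, and all 3 were found. Each of the 24 samples came from 1 male C57/Bl6 mouse. Flow cytometry sorted the CD45+ CD4+ Foxp3(YFP)+ cells, and their lysate was read on an nCounter instrument, which tallies barcoded probe molecules without amplification. Control mice were Foxp3-YFP-Cre;Insr wt/wt and knockout mice were Foxp3-YFP-Cre;Insr fl/fl, so every animal of every group carried the Cre allele. By these labels the genotypes differed in the floxed insulin receptor gene. Other differences between them, such as litter, were not tested. Per the labels, this Cre line also recombines outside Tregs, so the deletion may not be limited to them, and the animals were F4 mice bred from F3 littermates. The normal chow diet (NCD) was given to 3 controls and 3 knockouts, and a diet rich in fat and sucrose (HFD) to 4 controls and 5 knockouts. These 15 mice were fed for 13 weeks from 3 weeks of age and were 16 weeks old at sampling. A further 3 controls and 6 knockouts stayed on NCD until 52 weeks of age. The comparisons asked how losing the insulin receptor, the diet and age each bore on these Tregs.

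Effector Tregs are activated Tregs that leave the lymphoid organs, settle in tissues and carry the strongest suppressive programme. Irf4 is a transcription factor induced by T cell receptor signals that pairs with AP-1 factors of the BATF and JUN families on DNA and is needed for effector Treg differentiation. Prdm1 encodes Blimp-1, a transcriptional repressor that acts together with Irf4 in effector Tregs and is known for promoting Il10. Klrg1 encodes an inhibitory lectin-like receptor that binds cadherins; it marks terminally differentiated effector Tregs and also appears on effector CD8 T cells and NK cells. In lean adipose tissue Tregs are known for a phenotype that includes the IL-33 receptor and Pparg, and for a decline in obesity.

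On the RefSeq annotation of GRCm38.p6, Klrg1 lies on chromosome 6 from 122270596 to 122282833, Irf4 on chromosome 13 from 30749233 to 30766981, and Prdm1 on chromosome 10 from 44437174 to 44528558. All 3 are protein-coding, and the panel names matched their symbols directly. The 250 bases before a RefSeq transcript start are shown for the 2 transcription factors because Irf4 binds DNA with AP-1 factors and both genes are members of one programme. The Irf4 stretch is chr13:30748983-30749232 on the plus strand. The Prdm1 stretch is chr10:44458749-44458998 on the minus strand, within the annotated bounds of the gene. Both are written 5′ to 3′, and capitals mark a match to the AP-1 motif TGANTCA.
Irf4: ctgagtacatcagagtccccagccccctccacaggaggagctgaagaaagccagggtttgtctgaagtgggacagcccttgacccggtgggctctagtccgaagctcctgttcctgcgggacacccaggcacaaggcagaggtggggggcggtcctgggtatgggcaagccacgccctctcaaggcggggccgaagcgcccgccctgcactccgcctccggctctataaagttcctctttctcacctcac
Prdm1: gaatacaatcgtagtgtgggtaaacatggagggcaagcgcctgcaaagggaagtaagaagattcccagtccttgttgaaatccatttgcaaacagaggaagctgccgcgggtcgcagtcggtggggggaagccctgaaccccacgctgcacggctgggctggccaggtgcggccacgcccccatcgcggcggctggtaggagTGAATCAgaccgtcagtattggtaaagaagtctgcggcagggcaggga
The search covered 300 bases, that is 250 before and 50 after the start, on both strands. The Prdm1 window held 1 match to TGANTCA, 48 bases before the start, and such a match is found in 7.81% of the 32851 RefSeq promoter windows of that length. The paired-core motif of interferon regulatory factors (IRF) and 2 joint motifs of AP-1 and IRF, one adjacent and one spaced, both of which contain the AP-1 letters, were found in 3.44%, 0.125% and 0.119% of the windows. None of these last 3 motifs was found in either of the Irf4 and Prdm1 windows. A match describes these letters and is not a measured binding site.

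The deposited values are signal, a linear count scaled per sample to a total near 100000 over the panel. The counts behind them could be recovered, and totals per sample ran from 11446 to 224793 counts around a median of 49098. NCD knockouts were the shallowest group, at 11446 to 23790 counts. The panel total was between 103368 and 126723 in NCD controls, 100071 and 104896 in HFD controls, and 100453 and 101426 in aged controls. Among knockouts it was between 100000 and 100118 on NCD, 100000 on HFD, and between 100000 and 100422 in aged mice. Every control was thus above 100000, for a reason that no source used here states. InsR signal was 107 ± 49.7 (SD, n = 3) in NCD controls and 10.5 ± 6.66 (n = 3) in NCD knockouts, 92.0 ± 31.7 (n = 4) and 5.43 ± 3.04 (n = 5) on HFD, and 388 ± 112 (n = 3) and 7.64 ± 5.85 (n = 6) in aged mice. Of 7 Treg markers, the panel measured Foxp3, CD25, Helios and Tcra. Their summed signal ran from 10610 to 15169 in NCD controls, 8195 to 10840 in NCD knockouts, 7861 to 10589 in HFD controls, 9937 to 12294 in HFD knockouts, 4942 to 7544 in aged controls and 689 to 4812 in aged knockouts. Every aged knockout library was therefore below every other library in the sum of these 4 genes, although not in each of them. In aged knockout 5 CD25 signal was 2420 and Tcra 698, above the 1485 of CD25 in aged control 1 and the 474 of Tcra in aged control 3. None of the 4 genes was at 0.

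Klrg1 signal was highest in chow-fed controls and low in every HFD mouse. In NCD controls it was 1811, 3314 and 2064, and in aged controls 806, 1671 and 397. In NCD knockouts it was 255, 370.3 and 183. In deposited signal every NCD control was thus above every mouse of the other 5 groups. The panel totals were unequal, at 109979 and 126723 in NCD controls 1 and 3 and 101042 in aged control 2. Divided by these totals, NCD controls 1 and 3 come out just below aged control 2. In HFD controls the signal was 149, 38.0, 175 and 133, and in HFD knockouts 22.9, 172, 239, 138 and 56.9. In the 6 aged knockouts the lowest, median and highest values were 23.0, 146 and 931. The lowest value, 22.9, rested on 8 counts with a 95% exact counting interval of 3.45 to 15.8 counts. Ordered by the mean log2 signal, the groups ran NCD control, aged control, NCD knockout, aged knockout, HFD control, HFD knockout. The first and second steps of that order separated groups whose ranges did not overlap in deposited signal, and the later neighbours overlapped. At equal panel totals the first of these separations is lost.

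**Figure D1:**
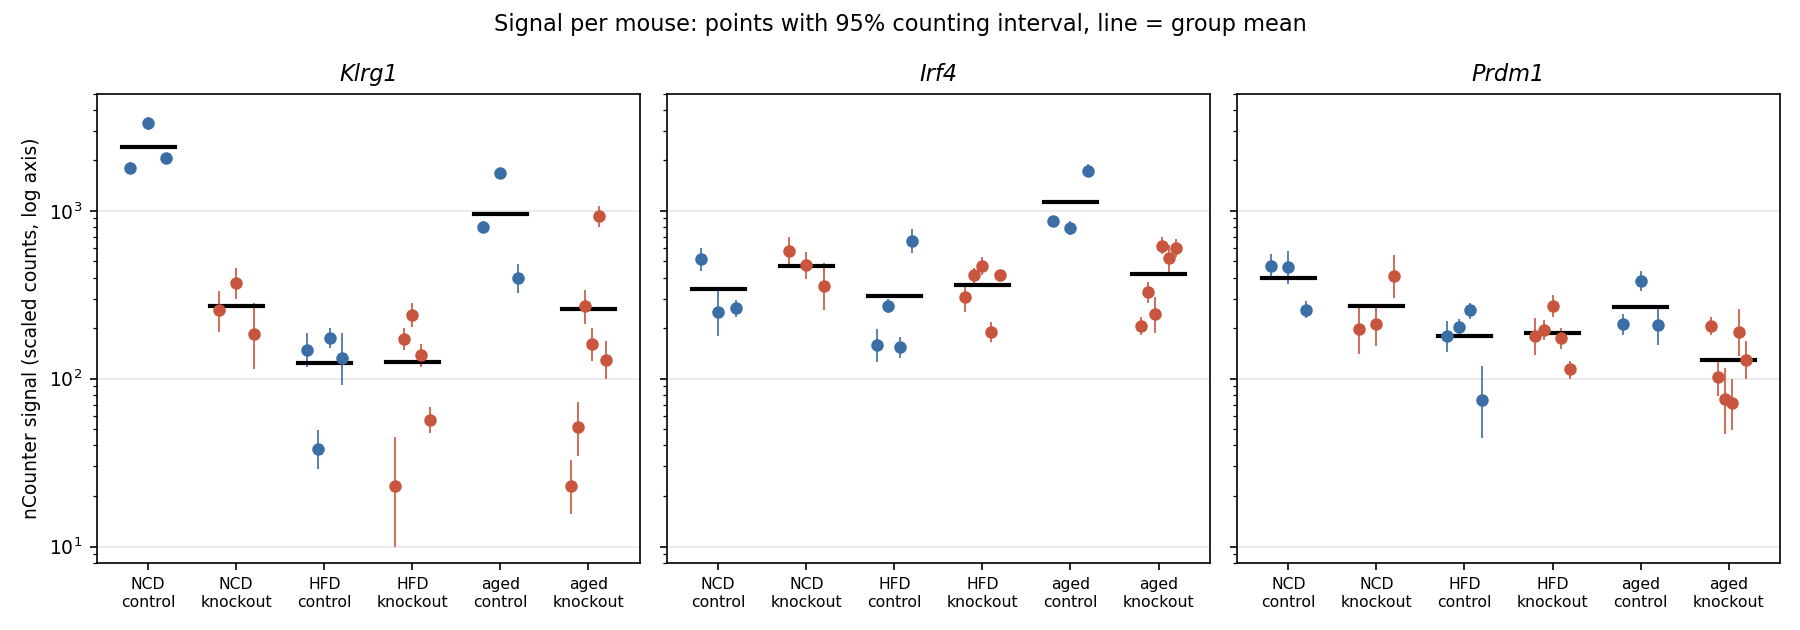
Signal of Klrg1, Irf4 and Prdm1 per mouse (log axis, scaled counts) in the 6 groups; points are mice with 95% counting intervals and lines are group means. Klrg1 stands highest in the 3 NCD controls (1811 to 3314), Irf4 in the 3 aged controls (791 to 1735), and the Prdm1 groups lie close together.

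Irf4 signal was highest in aged controls, and the other groups overlapped. The 3 aged controls had 864, 791 and 1735, above every other mouse of the series. NCD controls had 517, 249.9 and 263, and NCD knockouts had 579.6, 475.5 and 358. HFD controls had 159, 271, 153 and 663, and HFD knockouts 306, 413, 470.3, 189.8 and 417. The 6 aged knockouts ran from 207 through a median of 424 to 620.1. The order of the groups was aged control, NCD knockout, aged knockout, HFD knockout, NCD control and HFD control, and after the first step all neighbouring ranges overlapped. The HFD control with 663 lay far above the other 3 of its group, where the next value was 271.

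Prdm1 signal had the narrowest spread. NCD controls had 469, 464 and 258, and NCD knockouts had 196, 210.4 and 410.6. Aged controls had 210.5, 381 and 209.5, and the 6 aged knockouts ran from 71.4 through a median of 116 to 206. HFD controls had 179, 204, 255 and 75.0, and HFD knockouts 180.1, 195, 272, 174 and 113. NCD controls were the highest and aged knockouts the lowest group, yet each group overlapped its neighbour in the order NCD control, NCD knockout, aged control, HFD knockout, HFD control, aged knockout.

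The members differed in how much they varied. Over the 24 mice Klrg1 spanned a 145-fold range, against 11.3-fold for Irf4 and 6.58-fold for Prdm1. On the log2 scale the SD was 1.97 for Klrg1, the 6th largest of the 96 genes, 0.84 for Irf4 and 0.76 for Prdm1, with a panel median of 1.34. Within groups Klrg1 still had an SD of 1.30, against 0.67 for Irf4, 0.59 for Prdm1 and a panel median of 0.83. Differences between groups made up 66.2% of the variation of Klrg1, 50.4% of that of Irf4 and 52.9% of that of Prdm1, and the panel median was 61.3%.

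In controls Klrg1 was lower on HFD than on NCD. The mean Klrg1 signal was 2397 ± 805 (SD, n = 3) in NCD controls and 124 ± 59.7 (n = 4) in HFD controls, a 19.4-fold difference, and all 4 HFD controls were below all 3 NCD controls. On the log2(signal + 1) scale the change was -4.42 (SE 0.92, 95% interval -6.33 to -2.50), with an adjusted p of 0.0012 in limma with Benjamini-Hochberg adjustment over the 96 genes. Of the 96 genes, 17.7% passed as lower in this comparison and 25% had groups that did not overlap in this direction in deposited signal. The median change of all genes was -0.52. Prdm1, at 397 ± 121 (n = 3) against 178 ± 75.7 (n = 4), also had groups that did not overlap in deposited signal. The closest mice were NCD control 3 (258, panel total 126723) and HFD control 3 (255, panel total 104896). Divided by these totals, their order reverses and the groups overlap. The Prdm1 change of -1.23 (SE 0.48) did not pass (adjusted p = 0.069). It passed without NCD control 3 (0.040) or HFD control 3 (0.036). Irf4 changed by -0.33 (SE 0.52, 95% interval -1.42 to 0.75, adjusted p = 0.70). In a bulk sample a lower signal can mean fewer cells with the transcript or less of it per cell, which cannot be told apart here.

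In knockouts the same diet comparison passed for none of the 3 members, and 17.7% of the panel passed, all as lower. Klrg1 was 270 ± 94.3 (n = 3) on NCD and 126 ± 87.4 (n = 5) on HFD, with 4 of the 5 HFD knockouts below all NCD knockouts. The change was -1.44 (SE 0.88, 95% interval -3.27 to 0.39, limma adjusted p = 0.27). Irf4 changed by -0.43 (SE 0.50, adjusted p = 0.62) and Prdm1 by -0.51 (SE 0.46, adjusted p = 0.50). The interval for Klrg1 reaches down to -3.27 on the log2 scale, so the missed threshold does not show equal levels.

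Knockout against control on NCD gave a large difference in Klrg1 that missed the threshold. All 3 NCD knockouts were below all 3 NCD controls, with an 8.89-fold ratio of means. Groups that did not overlap in this direction in deposited signal made up 13.5% of the panel. The log2 change was -3.15 (SE 0.99, 95% interval -5.20 to -1.11, unadjusted p = 0.0041), the 6th smallest p of the panel, and the adjusted p was 0.066 with limma and Benjamini-Hochberg. The change passed without HFD knockout 1 (0.043), aged knockout 1 (0.031) or aged knockout 5 (0.027), none of which is in the comparison but all of which enter the fit. In this comparison 5.21% of the genes passed, and the median of all genes was -0.08. Irf4 was 343 ± 150.5 (n = 3) in controls and 471 ± 111 (n = 3) in knockouts, a log2 difference of 0.51 (SE 0.56, adjusted p = 0.83). Prdm1 was 397 ± 121 and 272.5 ± 119.8 (n = 3 each), a difference of -0.57 (SE 0.51, adjusted p = 0.74). The NCD controls enter this comparison and those of diet and age in controls, so the high Klrg1 of the same 3 mice is a part of each.

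On HFD none of the 3 members differed between the genotypes past the threshold. Klrg1 was 124 ± 59.7 (n = 4) in controls and 126 ± 87.4 (n = 5) in knockouts, a log2 change of -0.18 (SE 0.81, 95% interval -1.86 to 1.50, limma adjusted p = 0.92). Irf4 was 312 ± 240.4 and 359 ± 112, a change of 0.41 (SE 0.46, adjusted p = 0.72). Prdm1 was 178 ± 75.7 and 187 ± 56.9, a change of 0.15 (SE 0.42, adjusted p = 0.87). Only 2.08% of the panel passed here. The interval for Klrg1 is wide enough to hold a change of 1.50 up or 1.86 down on the log2 scale.

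**Figure D2:**
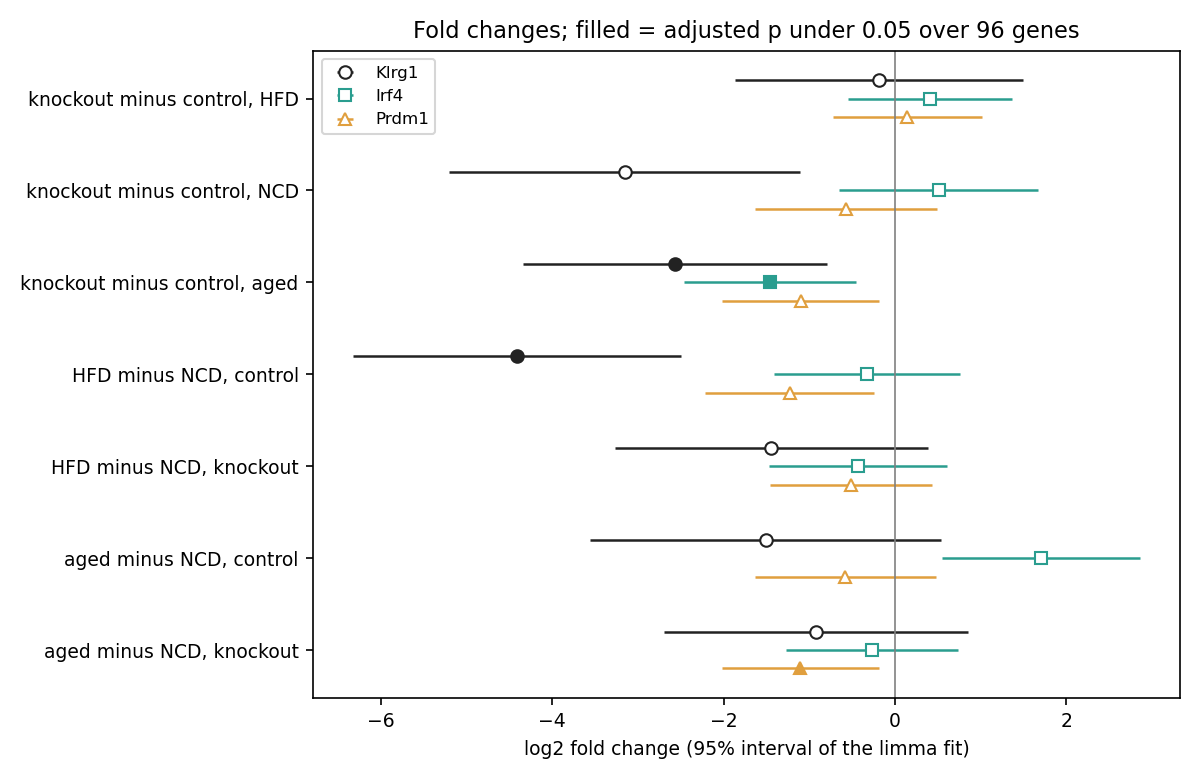
Log2 fold changes (x axis, with 95% intervals) of the 3 members in the 7 comparisons of 2 groups, from the limma fit over all 24 mice; filled symbols passed the adjusted p threshold of 0.05. The farthest point from 0 is Klrg1 in HFD against NCD controls (-4.42), and 4 of the 21 points passed, all below 0.

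In aged mice Klrg1 and Irf4 were lower in knockouts. Irf4 was 1130.3 ± 525 (SD, n = 3) in aged controls and 420 ± 184 (n = 6) in aged knockouts, and all 6 knockouts were below all 3 controls, as for 17.7% of the panel. Its log2 change was -1.46 (SE 0.49, 95% interval -2.47 to -0.46, limma adjusted p = 0.032). Klrg1 was 958 ± 650.3 (n = 3) and 261 ± 339.6 (n = 6), with 5 of 6 knockouts below every control, and changed by -2.56 (SE 0.86, 95% interval -4.34 to -0.79, adjusted p = 0.032). In this comparison 20.8% of the genes passed as lower, and the median of all genes was -0.60. Prdm1 was 267 ± 99.0 (n = 3) and 129 ± 57.6 (n = 6) with no overlap between the groups, and its change of -1.10 (SE 0.44, 95% interval -2.02 to -0.18) did not pass (adjusted p = 0.072). It passed without aged knockout 1 (0.044) or 5 (0.038), or without HFD control 4 (0.047).

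The defining genes of the sorted cells moved with this comparison. Foxp3 signal was 1462, 1633 and 2257 in the aged controls and 1418, 253, 787, 565, 931 and 172 in the aged knockouts. Igfbp7, the only 1 of 6 stromal, endothelial and adipocyte markers on the panel, ran from 202 to 2143 in aged controls and from 2001 to 8571 in aged knockouts. Lyz2, the only 1 of 9 myeloid markers, overlapped, at 132 to 4806 and 198 to 6875. Neither was at 0 in any aged mouse. Expressed per Foxp3 instead of per panel, Klrg1 changed by -0.87 (SE 1.00, adjusted p = 0.60), Irf4 by 0.23 and Prdm1 by 0.59, so the direction of Irf4 and Prdm1 turned, while the median of all genes moved from -0.60 to 1.09. Centred on the sample median, Klrg1 changed by -1.69 (adjusted p = 0.12) and Irf4 by -0.59 (adjusted p = 0.34), and neither passed. Centred on the 4 reference genes Gusb, Hprt, Rpl19 and Sdha, which gave a panel median of -0.77, both passed. The part of cell purity in the aged result was not tested.

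Single mice also decided these calls. The Irf4 call was lost without aged control 1 (limma adjusted p = 0.0503), 2 (0.057) or 3 (0.18), or without aged knockout 2 (0.060) or 3 (0.063), and the change ran from -1.67 to -1.11 over the 24 omissions. The Klrg1 call was lost without aged control 1 (0.072) or 2 (0.17), or without aged knockout 1 (0.051) or 2 (0.077), and the change ran from -3.12 to -2.04. Fitting only the aged groups gave an adjusted p of 0.088 for Irf4 and 0.11 for Klrg1. By contrast, the fall of Klrg1 in HFD against NCD controls passed in all 24 omissions, with changes of -4.65 to -3.92 and adjusted p from 0.00029 to 0.012. It passed under all 12 other settings tried, with changes of -4.76 to -3.80.

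**Figure D3:**
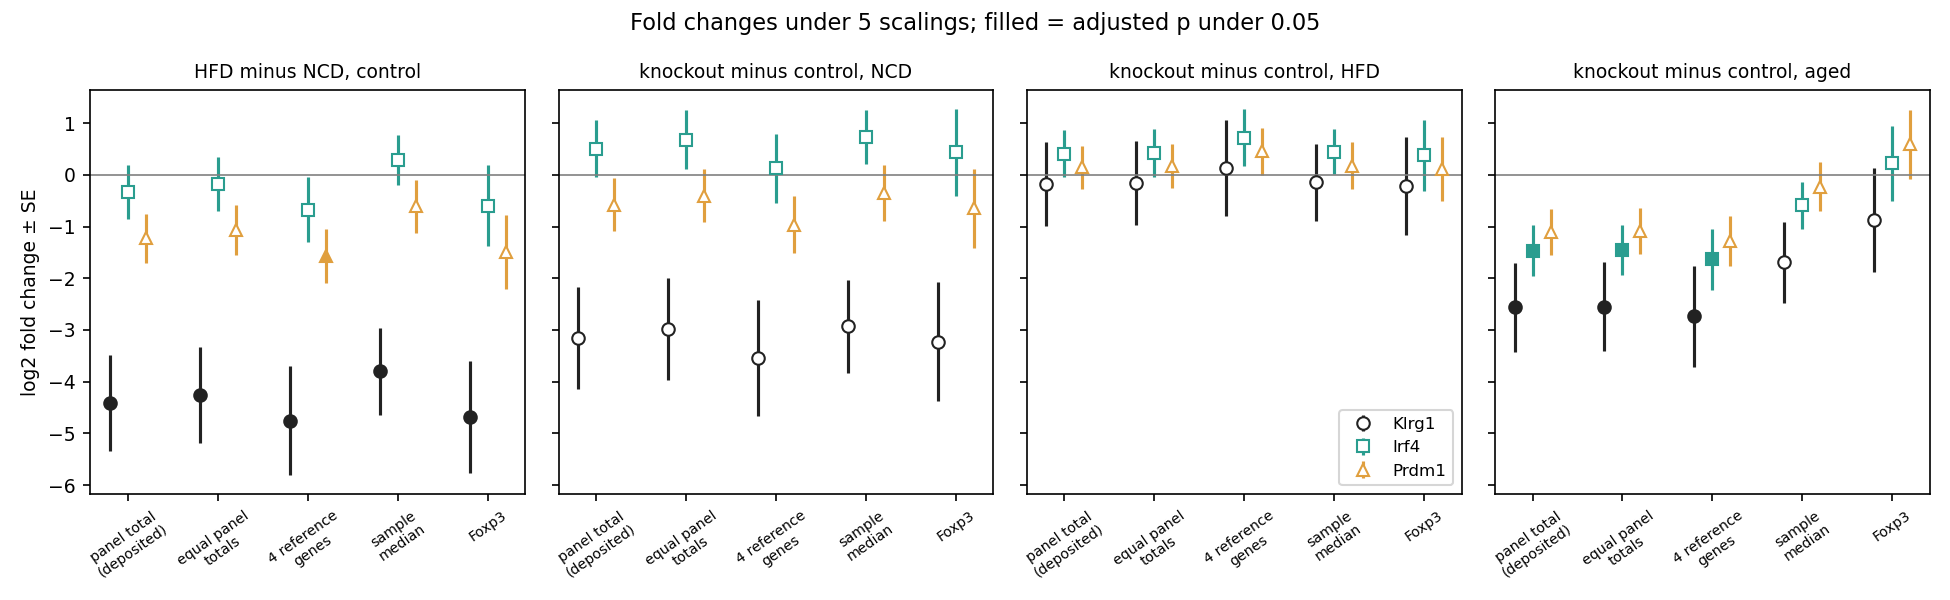
Log2 fold changes ± SE (y axis) of the 3 members under 5 scalings (x axis) in 4 comparisons; filled symbols passed at an adjusted p of 0.05. Klrg1 in HFD against NCD controls is filled under every scaling, while in aged mice Klrg1 goes from -2.56 per panel total to -0.87 per Foxp3 and is no longer filled.

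In aged against young chow-fed controls Irf4 was 3.29-fold higher by means, with no overlap between the groups, as for 18.8% of the panel. Its log2 change of 1.70 (SE 0.56, 95% interval 0.54 to 2.87) did not pass (limma adjusted p = 0.074), and 5.21% of the genes did. It passed without HFD control 4 (0.041) or aged knockout 1 (0.049), neither of which is in the comparison. Klrg1 was 2.50-fold lower by means, with no overlap in deposited signal, as for 25% of the panel, and its change of -1.51 (SE 0.99) did not pass (adjusted p = 0.35). At equal panel totals NCD controls 1 and 3 come out just below aged control 2 in Klrg1, so these groups then overlap. The shares of 18.8% and 25% were both counted on deposited signal, with its unequal totals. Prdm1 changed by -0.58 (SE 0.51, adjusted p = 0.49). Cell markers shifted in this comparison too, though none passed. The 4 Treg markers summed to 10610 to 15169 in NCD controls and 4942 to 7544 in aged controls. In the same order, mean Foxp3 signal was 3295 and 1784 and Helios 2421 and 935, while Tcra was 900 and 1191. Lyz2 was 232 and 2625, and Igfbp7 was 562 and 1111. The part of these cells in the age results was not tested.

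Among knockouts, Prdm1 fell with age. It was 272.5 ± 119.8 (n = 3) in young and 129 ± 57.6 (n = 6) in aged knockouts, with 5 of 6 aged mice below all young ones, and changed by -1.10 (SE 0.44, 95% interval -2.02 to -0.19, limma adjusted p = 0.039). As many as 41.7% of the genes passed as lower here and the median of all genes was -0.82, so the change of Prdm1 was near that of the panel. Markers of the sorted and of other cells moved with this comparison. Foxp3 fell by 2.59 and Helios by 3.38, while Igfbp7 rose by 5.19 (limma adjusted p = 6.4e-05) and Lyz2 by 2.96 (adjusted p = 0.028), and their part in the result was not tested. Centred on the sample median, which moved the panel median to -0.06, Prdm1 changed by -0.34 (adjusted p = 0.58). Centred on the 4 reference genes, with a panel median of -0.24, it changed by -0.52 (adjusted p = 0.41). Of those 4 genes Hprt itself passed as lower here (-1.09, adjusted p = 0.010), and their median change was -0.71. Per Foxp3 the sign turned, to 1.49. The call was also lost without NCD knockout 1 (adjusted p = 0.0509), 2 (0.057) or 3 (0.22), or without aged knockout 2 (0.062), 3 (0.080) or 4 (0.084). Klrg1 changed by -0.92 (SE 0.86, adjusted p = 0.39) and Irf4 by -0.27 (SE 0.49, adjusted p = 0.69). Per Foxp3 Irf4 passed as higher (2.32, adjusted p = 0.011).

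Averaged over the 3 settings with equal weight, Klrg1 was lower in knockouts, with a log2 change of -1.97 (SE 0.51, 95% interval -3.03 to -0.90, limma adjusted p = 0.028), and 4.17% of the genes passed as lower. Irf4 (-0.18, SE 0.29, adjusted p = 0.72) and Prdm1 (-0.51, SE 0.27, adjusted p = 0.22) did not pass. The Klrg1 call was lost per Foxp3 (-1.44, adjusted p = 0.20) and on the 4 reference genes (-2.05, adjusted p = 0.060). It was also lost without NCD control 2 (0.058), NCD knockout 1 (0.058) or 2 (0.056), or aged control 1 (0.053) or 2 (0.061).

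Whether the genotype effect differed between settings was tested directly, and none of the 9 member results passed. The effect on Klrg1 was 2.97 higher on HFD than on NCD (SE 1.28, 95% interval 0.32 to 5.62, unadjusted p = 0.029, limma adjusted p = 0.32), and 0% of the panel passed. The effect on Irf4 differed by -1.97 between aged and young chow-fed mice (SE 0.74, unadjusted p = 0.014, adjusted p = 0.14), where again 0% passed. Between aged and HFD mice the genotype effects differed by -1.87 for Irf4 (SE 0.67, adjusted p = 0.065), -2.38 for Klrg1 (SE 1.18, adjusted p = 0.16) and -1.25 for Prdm1 (SE 0.61, adjusted p = 0.16), while 12.5% of the panel passed. Of these, Irf4 passed without HFD control 4 (0.015), HFD knockout 4 (0.0498) or aged knockout 5 (0.045), and Klrg1 without aged knockout 5 (0.049).

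The members were also set against one another within each mouse, a comparison added after the data were seen. A log2 ratio of 2 signals from the same mouse, each with the pseudocount of 1 added, changes with the scaling of that sample only through the pseudocount. Its level depends on the 2 probes, so only differences between groups are read. The log2 ratio of Klrg1 to Irf4 was 1.81, 3.72 and 2.97 in the NCD controls and -1.18, -0.36 and -0.96 in the NCD knockouts, with no overlap. The difference was -3.67 (SE 1.00, limma adjusted p = 0.038). This ratio was also lower in HFD than in NCD controls, by -4.08 (SE 0.94, adjusted p = 0.0033), and in aged than in NCD controls, by -3.22 (SE 1.00, adjusted p = 0.0098). In that age comparison the denominator Irf4 itself changed by 1.70 and Klrg1 by -1.51. The genotype call was lost with a pseudocount of 0.1 (adjusted p = 0.069). It was also lost without HFD control 4 (0.051), NCD control 2 (0.16) or 3 (0.10), or NCD knockout 1 (0.13) or 3 (0.087). The age call was lost without NCD control 2 (0.058) or aged control 3 (0.090), and the diet call passed in all 24 omissions.

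The ratio of Klrg1 to Prdm1 was 2.59 ± 0.57 (SD, n = 3) in NCD controls and -0.59 ± 1.34 (n = 4) in HFD controls, a difference of -3.19 (SE 0.98, limma adjusted p = 0.039). That call was lost with the recovered total as a covariate (0.056), and without HFD control 1 (0.060) or 2 (0.090) or NCD control 1 (0.074), 2 (0.14) or 3 (0.055). Of 21 ratio differences tested, 4 passed, and in each of the 4 the group compared with the NCD controls had less Klrg1 relative to the other member. All 4 rest on the same 3 NCD controls. In aged mice the genotypes did not differ past the threshold, with -1.10 (SE 0.87, adjusted p = 0.40) for Klrg1 to Irf4 and -1.46 (SE 0.91, adjusted p = 0.29) for Klrg1 to Prdm1. No difference in the ratio of Irf4 to Prdm1 passed, the farthest being 2.28 between aged and NCD controls (SE 0.84, adjusted p = 0.13). That difference passed with array weights (2.49, adjusted p = 0.0053) and without HFD control 4 (adjusted p = 0.048). With array weights the ratio of Klrg1 to Prdm1 also passed between genotypes on NCD (-2.03, adjusted p = 0.046).

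**Figure D4:**
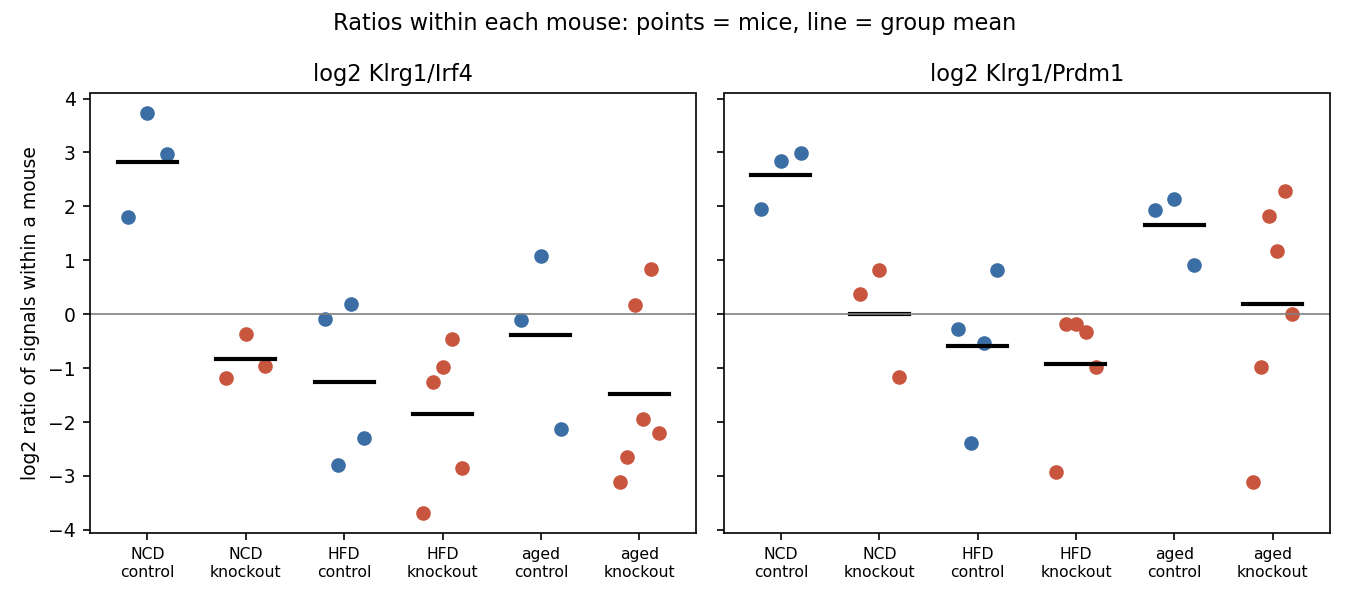
Log2 ratio of Klrg1 to Irf4 (left) and to Prdm1 (right) within each mouse (y axis) in the 6 groups; points are mice and lines are group means. The 3 NCD controls lie from 1.81 to 3.72 on the left, above every other mouse, and have a mean of 2.59 on the right.

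For the other effector Treg genes, panel rows matched by name to 6 of 11 listed transcription factors, 8 of 16 surface receptors and 4 of 9 products. The rows named Perforin and TGFb matched no single symbol and joined no list, so the products are counted without them. In HFD against NCD controls 2 of the 6 transcription factors fell, Pparg (-2.26, SE 0.49), the master regulator of adipose Tregs, and Nr4a1 (-1.26, SE 0.35), a gene induced by T cell receptor signals. Of the 8 receptors 3 fell, Klrg1, Il1rl1 (-2.73, SE 0.54), which encodes the IL-33 receptor, and CD25 (-2.46, SE 0.59), the IL-2 receptor alpha chain. IL-10, a suppressive cytokine, fell by 2.16 as the 1 of 4 products that passed. These counts stand beside 17.7% of the panel that passed as lower. The list medians were -1.25, -0.50 and -1.13, beside -0.52 for the whole panel. Ccr7, a homing receptor of central T cells and the 1 of 6 genes known to be opposed by Prdm1 that the panel held, rose by 3.89 (SE 0.64, limma adjusted p = 9.6e-05).

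On NCD none of the 18 listed effector genes, Klrg1, Irf4 and Prdm1 among them, passed between the genotypes, with list medians of -0.49, -0.05 and 0.08, and Ccr7 rose by 2.81 (SE 0.69, limma adjusted p = 0.015). On HFD none of the 18 passed either, with medians of 0.35, 0.24 and 0.41. In aged mice 9 of the 18 were lower in knockouts, beside 20.8% of the panel. They were Irf4 among 6 transcription factors, 5 of 8 receptors, and 3 of 4 products. Beside Klrg1 the receptors were Il1rl1 (-2.62, SE 0.50), CD25 (-2.35, SE 0.54), Pdcd1 (-1.91, SE 0.46), an inhibitory receptor, and Cd69 (-1.31, SE 0.47), an activation and residency marker. The products were GzmB (-2.21, SE 0.72), a cytotoxic protease, IL-10 (-2.07, SE 0.42) and Areg (-1.84, SE 0.46), a tissue repair factor. The list medians of -1.03, -1.61 and -1.96 stood beside a panel median of -0.60, and in the same mice Foxp3 changed by -1.69 (SE 0.50, limma adjusted p = 0.021). None of the 4 reference genes passed there, with a median of 0.12, while Hprt passed as lower in aged against NCD knockouts and Gusb in HFD against NCD knockouts (-1.31, adjusted p = 0.040).

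Between HFD and NCD knockouts, Pparg alone of the 18 fell (-1.36, SE 0.47), while 17.7% of the panel passed as lower. Between aged and NCD controls, ICOS, a costimulatory receptor, alone fell (-1.60, SE 0.46), while 5.21% of the panel passed in either direction. Between aged and NCD knockouts 3 of 6 transcription factors, 6 of 8 receptors and 4 of 4 products were lower, beside 41.7% of the panel, and Foxp3 changed by -2.59 (SE 0.50, limma adjusted p = 0.00024). In the same comparison the stromal marker Igfbp7 rose by 5.19 and the myeloid marker Lyz2 by 2.96. Ccr7 was lower there too, with a change of -2.09 (SE 0.60, limma adjusted p = 0.0069), in the same direction as Prdm1. It did not pass between genotypes on HFD (-0.34) or in aged mice (0.47). Nor did it pass in HFD against NCD knockouts (0.74) or in aged against NCD controls (0.25).

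**Figure D5:**
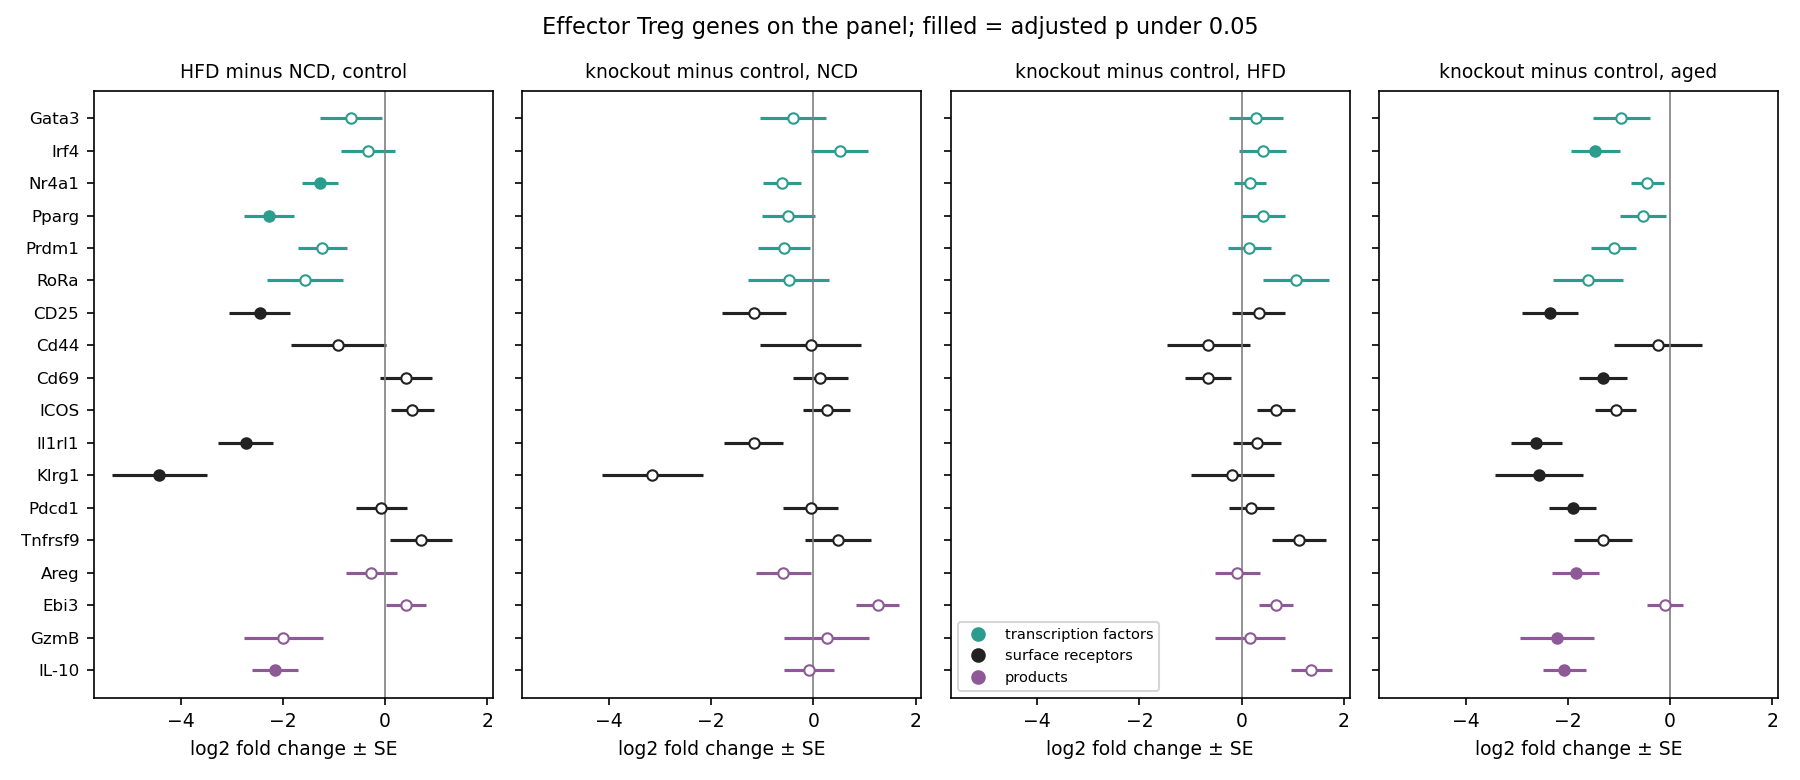
Log2 fold changes ± SE (x axis) of the 18 listed effector Treg genes matched by name on the panel (y axis) in 4 comparisons; colours give the list and filled symbols passed at an adjusted p of 0.05. No symbol is filled for knockout against control on NCD or HFD, and 9 are filled, all below 0, in aged mice.

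Because Klrg1 is also made by NK and CD8 T cells, the markers of those cells are given beside it. The panel held 2 of 7 that matched a gene symbol, GzmA and GzmB, which Tregs can express too. Their summed signal was 260 to 1247 in NCD controls, 223 to 708 in NCD knockouts, 70.9 to 130 in HFD controls, 34.3 to 203 in HFD knockouts, 217 to 441 in aged controls and 18.0 to 402 in aged knockouts. GzmA fell in HFD against NCD controls by 2.81 (SE 0.82, limma adjusted p = 0.012), as Klrg1 did, and its ranges in NCD controls and NCD knockouts, 162 to 1155 and 130.5 to 437, overlapped, where those of Klrg1 did not. The row named Perforin, which matched no symbol and joined no list, ran from 440 to 719 in NCD controls, 358 to 778 in NCD knockouts and 104 to 1005 in HFD controls, so these 3 groups overlapped. In HFD knockouts it ran from 110 to 206, below every NCD mouse, and it ran from 274 to 606 in aged controls and from 83.6 to 499 around a median of 129 in aged knockouts. The sort selected CD4+ Foxp3(YFP)+ cells, a gate meant to leave out NK and CD8 T cells, and the purity it reached is not given here. The part of NK and CD8 T cells in the Klrg1 result was not tested. The B cell markers were not measured.

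The genes whose group means ran most like each member over the 6 groups, by Pearson's r of mean log2 signal, are given as a description over 6 points. For Klrg1 these were Cabyr (r = 0.94), S100a4 (r = 0.90), a calcium-binding protein of effector and memory T cells, and Nr4a1 (r = 0.90). For Irf4 they were Mmp9 (r = 0.95), a matrix protease, IL-10 (r = 0.82) and Tmem176a (r = 0.78). The Mmp9 signal was 206 ± 90.2 (SD, n = 3) in aged controls and 12.6 to 65.0 in aged knockouts, and it rested on 20 or fewer counts in each mouse outside the aged controls. For Prdm1 they were CD25 (r = 0.996), Il1rl1 (r = 0.99) and GzmA (r = 0.92). Il1rl1 signal was 8741 ± 836 (n = 3) in NCD controls, the highest Prdm1 group, and 559 ± 359 (n = 6) in aged knockouts, the lowest. Between the members themselves r was 0.86 for Klrg1 and Prdm1, 0.37 for Klrg1 and Irf4, and 0.25 for Irf4 and Prdm1.

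Within groups the members showed no shared movement that could be detected. Over the 24 mice, with each group's mean removed, Klrg1 and Irf4 had r = 0.12 (rho = -0.09, permutation p = 0.64), and Klrg1 and Prdm1 had r = 0.07 (rho = 0.11, permutation p = 0.78). Irf4 and Prdm1 had r = -0.38 (rho = -0.36, permutation p = 0.14). Adjusted over the 3 pairs, the permutation p-values were 0.78, 0.78 and 0.42. Without the 2 mice farthest out in Irf4, HFD control 4 and aged knockout 1, r of Irf4 and Prdm1 was 0.03, so that relation rested on them. Leaving out the 2 mice farthest out in Klrg1, aged knockouts 1 and 5, gave r = -0.15 with Irf4 and 0.11 with Prdm1. Per Foxp3, a shared denominator, r was 0.47, 0.44 and 0.42 in the same order, with a permutation p of 0.14 for each after adjustment.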

How the data were processed

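Tregs sorted from the VAT of 24 mice were measured on a 96-gene nCounter panel. The authors deposited linear signal, scaled per sample to a panel total near 100000, as read from the values; no source used here gives the background correction or the software. Dividing by a step specific to each sample turned 2302 of 2304 deposited values into whole counts within 0.02, and these recovered counts gave the depth and counting intervals, which cover counting error only. Panel names matched a mouse symbol for 88 genes, a synonym for 4, several for 1 and none for 3. A model with 6 group means was fitted to log2(signal + 1) of all 24 samples with limma 3.58.1 in R 4.3.3, and 11 contrasts were tested, two-sided, with Benjamini-Hochberg adjustment over 96 genes and a threshold of 0.05. All genes and samples were kept, and the fit was tested on simulated data. The members and gene lists were chosen with earlier results of these data known. Named besides the members were list genes that passed, up to 4 a list, the 3 genes most like each member, and markers. The Perforin row was named after its values were seen. Pseudocounts, a low-value filter, scalings, fitted groups, weights, a replicate block, depth and single omissions were tried as alternatives. Rescaling to an equal panel total, voom and the ratios between members were chosen after seeing the data. Replicate numbers do not pair samples: deviations of same-numbered samples had a median correlation of -0.04 over 49 pairs. RefSeq promoters were searched with Python 3.11.15.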

Additional observations from a re-analysis of the deposited data

Results flagged for a closer look

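The 3 members in the 3 groups of 4 or more mice gave 9 sets of values tested for an extreme sample on the linear signal, and 1 stood out. Klrg1 signal in aged knockout replicate 5 was 930.8, from 200 counts, and the next highest aged knockout had 271. The gap to the next mouse was 0.727 of the whole range of the group, above Dixon's critical value of 0.625 for 6 mice. On the log2(signal + 1) scale of the fits the gap was 0.337 of the range, below that value. For normally distributed values chance gives such a gap in about 1 of 20 groups. Linear signal with a long upper tail can give it more often, and 9 sets were tested. The same mouse had 4812 in summed Treg markers, the highest of the aged knockouts, and a Foxp3 signal of 931. Without it the Klrg1 difference between aged knockouts and controls was -3.12 on the log2 scale (limma adjusted p = 0.0060), and with it -2.56.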

How the results depend on the processing

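The fall of Klrg1 in HFD against NCD controls kept its direction and its call under all 12 other settings and all 24 single omissions. Klrg1 in knockout against control on NCD passed under 5 of 12 settings: array weights (-3.01), the fit of the contrast's groups alone (-3.15), a pseudocount of 10 (-3.11), log2 recovered total as a covariate (-3.67) and voom (-2.85). Klrg1 in aged mice passed under 9 of 12 and was lost with the contrast's groups alone (-2.56), the sample median (-1.69) and Foxp3 (-0.87). Irf4 in aged mice also passed under 9 of 12 and was lost with the contrast's groups alone (-1.46) and the sample median (-0.59), and turned per Foxp3 (0.23). The cause was not tested.

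Array weights also brought past the threshold Irf4 in aged against NCD controls (1.56), the genotype by diet term of Klrg1 (3.16), the aged minus HFD genotype effects of Klrg1 (-2.65) and Prdm1 (-1.81), and Prdm1 in HFD against NCD controls (-1.49), in aged genotypes (-1.49) and in the mean genotype effect (-0.67); they turned Klrg1 on HFD to 0.15. Centring on the 4 reference genes turned Irf4 in aged against NCD knockouts (0.31), the genotype by diet term of Irf4 (0.60) and Klrg1 between genotypes on HFD (0.13). It brought past the threshold the aged minus HFD effect of Irf4 (-2.36) and Prdm1 in HFD against NCD controls (-1.57), and lost the mean genotype effect of Klrg1 (-2.05) and Prdm1 in aged against NCD knockouts (-0.52). Centring on Foxp3 turned aged against NCD knockouts for Irf4 (2.32, then past the threshold with an adjusted p of 0.011), Klrg1 (1.67) and Prdm1 (1.49), the mean genotype effect of Irf4 (0.35) and Prdm1 (0.019), and Prdm1 in aged genotypes (0.59), in aged against NCD controls (0.25), in the genotype by age term (1.23) and in the aged minus HFD effect (0.48). It lost the mean effect of Klrg1 (-1.44) and turned the correlation of Irf4 and Prdm1 (0.42). Centring on the sample median turned Irf4 in HFD against NCD controls (0.29), in aged against NCD knockouts (0.495) and in the mean effect (0.20), the genotype by age term of Prdm1 (0.12), and the correlations of Klrg1 with Irf4 (-0.11) and Prdm1 (-0.086). It brought Irf4 in aged against NCD controls past the threshold (1.82) and lost Prdm1 in aged against NCD knockouts (-0.34).

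That last result was also lost with the contrast's groups alone (-1.10), the depth covariate (-1.12) and voom (-1.09). The depth covariate turned Irf4 in HFD against NCD knockouts (0.080), in aged against NCD knockouts (0.047) and in the genotype by diet term (0.26), and the Klrg1 to Prdm1 ratio in HFD against NCD knockouts (0.0015). The aged minus HFD effect of Irf4 passed with the depth covariate (-1.98), voom (-1.95) and without the 24 lowest genes (-1.87), and voom brought Irf4 in aged against NCD controls to 1.87. Array weights turned the Irf4 to Prdm1 ratio in HFD against NCD knockouts (-0.41) and the Klrg1 to Prdm1 ratio on HFD (0.12), and brought past the threshold the Irf4 to Prdm1 ratio in aged against NCD controls (2.49) and the Klrg1 to Prdm1 ratio between genotypes on NCD (-2.03). Without the 2 farthest samples the correlations were 0.027 for Irf4 and Prdm1 and -0.15 for Klrg1 and Irf4.

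The replicate block, by the number in the title, brought the aged minus HFD effect of Irf4 to -2.175 with a limma adjusted p of 0.045 and lost Prdm1 in aged against NCD knockouts (-0.93). It turned the ratio of Irf4 to Prdm1 in HFD against NCD knockouts (-0.40) and that of Klrg1 to Prdm1 in aged against NCD knockouts (-0.40), lost the Klrg1 to Irf4 ratio between genotypes on NCD (-3.67, adjusted p = 0.066), and changed no other call. The numbers name samples and do not pair them.

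Leaving out 1 mouse at a time gave, for knockout against control on HFD, -0.67 to 0.32 for Klrg1 and -0.22 to 0.36 for Prdm1. On NCD Klrg1 ran from -3.41 to -2.90. In aged mice Klrg1 ran from -3.12 to -2.04, Irf4 from -1.67 to -1.11 and Prdm1 from -1.26 to -0.81, and the mean effect of Klrg1 from -2.15 to -1.79. In HFD against NCD controls Irf4 ran from -0.79 to 0.0046 and Prdm1 from -1.51 to -0.86. Irf4 in aged against NCD controls ran from 1.35 to 2.04 and Prdm1 in aged against NCD knockouts from -1.30 to -0.77. The genotype by diet term of Irf4 ran from -0.44 to 0.35, and the aged minus HFD effects from -2.33 to -1.52 for Irf4 and -2.93 to -1.86 for Klrg1. The ratio of Klrg1 to Prdm1 ran from -0.93 to 0.17 between genotypes on HFD and from -0.40 to 0.85 in aged against NCD knockouts. That of Irf4 to Prdm1 ran from -0.20 to 1.09 on HFD, from -0.86 to 0.14 in aged genotypes and from -0.44 to 0.44 in HFD against NCD knockouts.

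The share of the panel that passed moved with the setting. In aged genotypes 23 genes passed, against 46 with array weights and 5 with the contrast's groups alone. In aged against NCD controls 5 passed, against 19 with array weights and 10 with voom, and between genotypes on NCD 5 passed, against 8 with array weights and 1 per Foxp3. In HFD against NCD knockouts 17 passed, against 28 with array weights and 1 with the depth covariate. In aged against NCD knockouts 52 passed, against 32 on the sample median. In the mean genotype effect 5 passed, against 21 with array weights and 1 on the 4 reference genes. The planned quasi-likelihood test on counts was not run, because a check of units did not accept the recovered counts as whole reads. Voom stood in for it and, like the counting intervals, rests on the same recovered counts. The low counts of the NCD knockouts, 21 to 88 for Klrg1, limit its precision there.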
